A study of Mus musculus with 2 samples.

Results

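The genes described here are the nuclear-encoded genes of oxidative phosphorylation (OXPHOS) in splenic regulatory T (Treg) cells of the mouse. They are every gene in the deposited feature list whose symbol begins with Nduf, Uqcr, Cox4 to Cox8 or Atp5, or is Sdha, Sdhb, Sdhc or Sdhd, with pseudogene names left out. This rule found 94 features with 93 symbols among 31253 features, and it used no measured value. By role they are 7 core subunits of complex I, 29 accessory subunits and 8 assembly factors of complex I, 4 subunits of complex II, 8 of complex III, 20 of complex IV and 18 of complex V. Ndufa4 and Cox7a2l are counted with complex IV, with which their products associate. Atp5o appears as 2 overlapping annotated genes on chromosome 16, so the counts of both Atp5o entries are uncertain.

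Complexes I to IV of the inner mitochondrial membrane pass electrons from NADH and succinate to oxygen and build a proton gradient, and complex V uses that gradient to make ATP. Complex II is wholly nuclear-encoded, whereas the others also hold subunits made from the mitochondrial genome. Treg cells are known for their use of oxidative metabolism, and activated T cells enlarge their mitochondrial machinery as they begin to divide.

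CD4+FoxP3+ Treg cells were sorted from spleen, and their RNA was counted in single cells with a 10x Genomics 3' kit, version V3.1. One library, called +/+ below, came from Foxp3YFP-CreKmt2d+/+ mice, and the other, called fl/fl, came from Foxp3YFP-CreKmt2dfl/fl mice; each pooled the cells of 3 mice. Foxp3YFP-Cre, which both genotypes carry, expresses a fluorescent Cre from the Foxp3 gene, so Cre is expected in Foxp3-expressing cells. The floxed gene, Kmt2d, encodes a histone H3 lysine 4 methyltransferase. The labels give no age and do not say which exons are floxed. With 1 library per genotype, no difference between genotypes was tested, and all values describe these libraries. Where a pair of values is given without names, +/+ comes first. Intervals are 95% and exact (Poisson for a level, conditional binomial for a ratio), and they cover counting error only.

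The +/+ file held 7947 barcodes and the fl/fl file 8784, with 15 barcode sequences in both. After filtering, 7790 and 8634 remained, of which 82.3% and 74.9% were T cells by their marker counts, although both samples were sorted for Treg cells. Cells were divided by marker genes into 8 T cell gates and into B, plasma, NK, neutrophil and monocyte/macrophage/DC gates. Barcodes with markers of 2 lineages (176 and 237) were left out as doublets, and doublets within a lineage were not searched for. Gated T cells had a median of 5590 unique molecular identifiers (UMIs) in +/+ and 6292 in fl/fl. Foxp3 was at 26.2 and 18.9 CPM in them (CPM is a count scaled to a fixed library total), and at 0.30 and 0.14 CPM in B cells. Kmt2d was at 71.6 and 66.2 CPM. This 3' count does not check the deletion, since the floxed exons are not stated. In T cells the erythroid markers summed to 2.99 and 98.4 CPM, the neutrophil markers to 26.8 and 11.6 CPM and the B cell markers to 13.7 and 7.31 CPM, and their part in the results was not tested. In the Treg gates alone the erythroid sums were 3.44 and 1.26 CPM.

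The promoters of these genes are known for sites of NRF1, the ETS factor GABP and YY1, and the members below are shown because they carry the palindromic NRF1 motif before the start of transcription. RefSeq promoter windows of GRCm38.p6, from 250 bases before to 50 bases after each start, matched 77 of the 94 features, or 71 distinct genes among the members counted as measured below. On either strand, the NRF1 motif, spelled out in capitals below, was in 7 of these 71 (9.86%), against 2.68% of the 6447 genes measured in T cells that had a window. The YY1 motif was in 8.45% of the measured members and 3.12% of all measured genes, and the ETS motif CCGGAAG in 25.4% and 24.4%. Among 69 mitochondrial ribosomal protein genes with a window, the NRF1, YY1 and ETS motifs were in 4.35%, 7.25% and 37.7%. An ETS match can share its last letters with a YY1 match, and a match describes letters, not binding. The 7 members with the NRF1 motif were Atp5g2, Atp5k, Cox6a1, Ndufa11, Ndufaf4, Ndufaf5 and Uqcrc1. The capitals mark the motif in stretches that meet no annotated exon, at chr5:115349030-115349129 (minus strand) for Cox6a1, chr17:56717686-56717745 (plus strand) for Ndufa11 and chr4:24897925-24898024 (plus strand) for Ndufaf4. The motif begins 162, 60 and 113 bases before the RefSeq start.
Cox6a1: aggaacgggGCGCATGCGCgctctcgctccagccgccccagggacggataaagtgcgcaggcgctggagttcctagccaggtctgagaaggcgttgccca
Ndufa11: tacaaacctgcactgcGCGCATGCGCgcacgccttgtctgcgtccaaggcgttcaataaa
Ndufaf4: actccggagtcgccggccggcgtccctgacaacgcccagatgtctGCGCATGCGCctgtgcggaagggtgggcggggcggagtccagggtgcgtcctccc

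Of the 94 features, 84 reached 10 CPM in at least 1 library and are called measured. The other 10 were 7 tissue-restricted complex IV isoforms, Ndufa4l2, the assembly factor Ndufaf1 and the second Atp5o entry. Levels were uneven: the 10 highest members held 32.0% of all member UMIs in +/+ and 32.4% in fl/fl. The highest was Uqcrh, the hinge subunit of complex III, at 620 and 632 CPM. A CPM here counts transcripts tagged at their 3' end and is not scaled by transcript length, so the order of genes is an order on that scale alone.

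**Figure D1:**
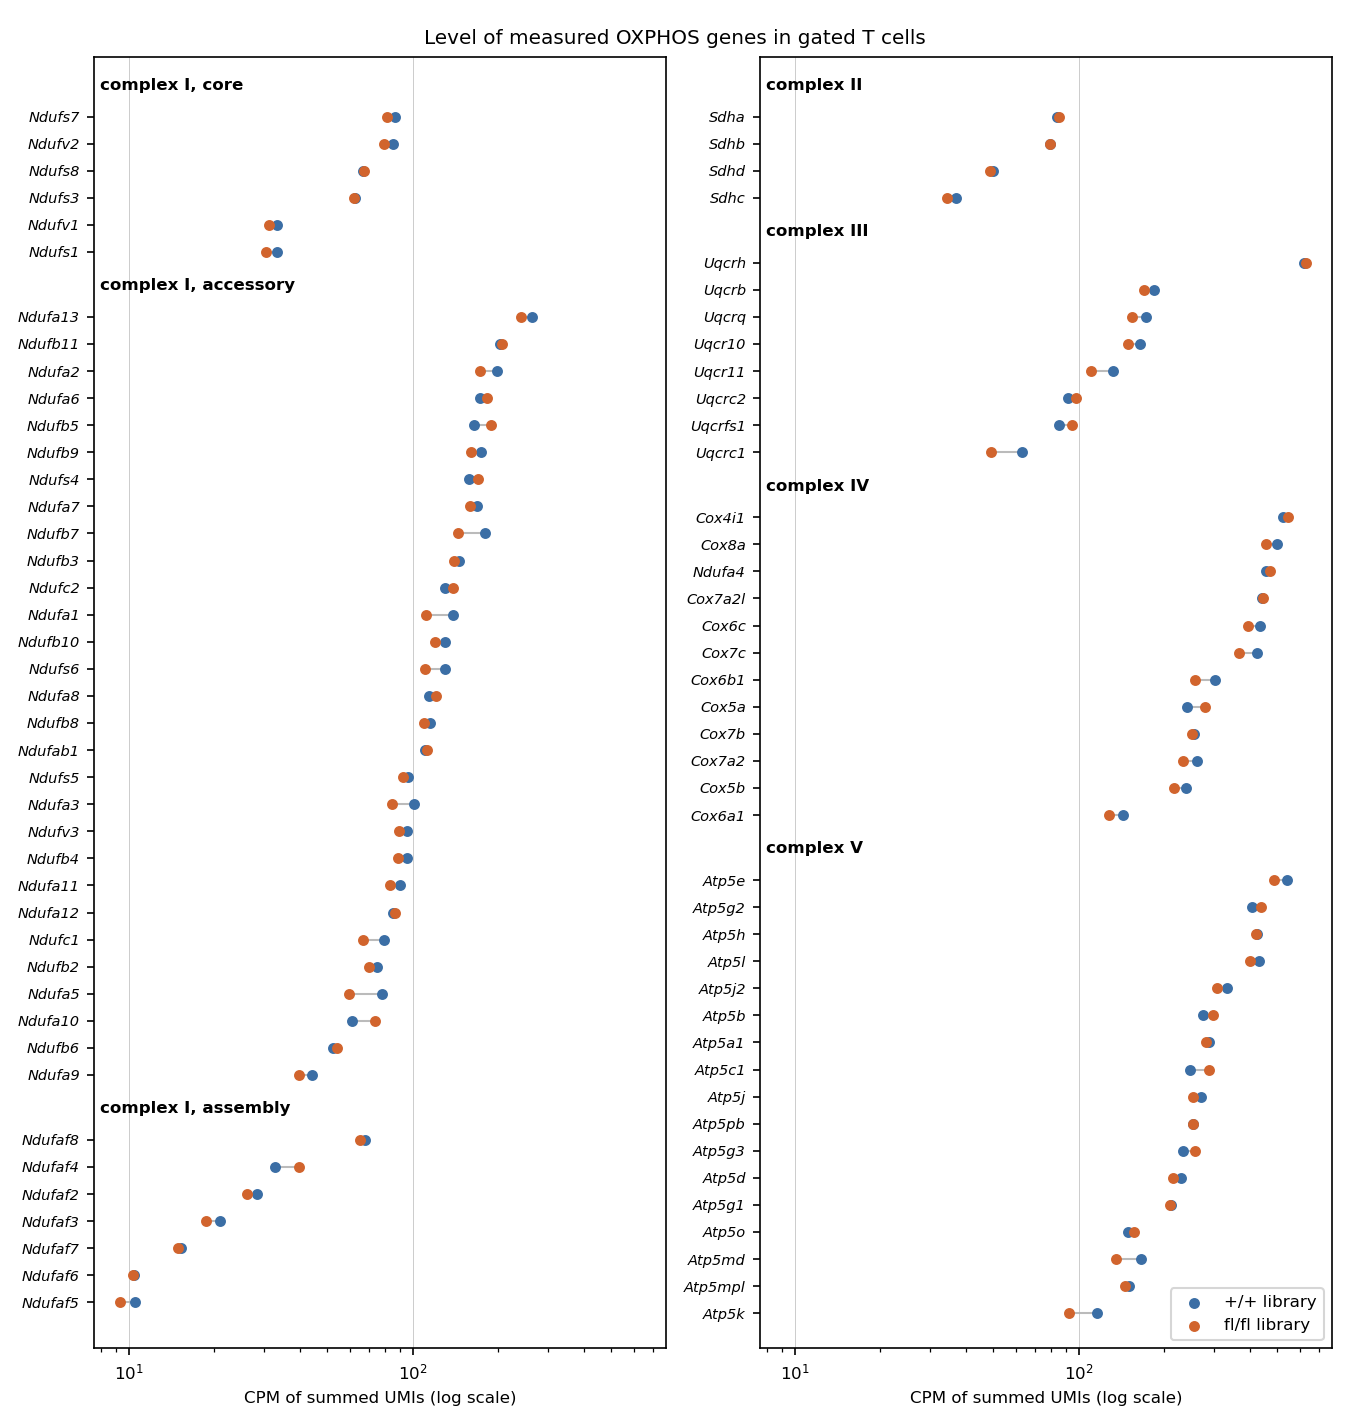
Level of 83 of the 84 measured genes in gated T cells, as CPM of the summed UMIs on a log axis, grouped by complex and sorted by mean level, with 1 point for the +/+ and 1 for the fl/fl library. Levels run from 9.34 CPM in fl/fl for Ndufaf5 to 632 CPM in fl/fl for Uqcrh, and the 2 points of a gene lie close together.

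The first comparison was between the genotypes in all gated T cells. Summed over all 94 features, the members stood at 15001 and 14487 CPM, a log2 ratio of -0.050 (-0.055 to -0.045). The median member was at -0.085, beside a median of -0.096 over all 8002 genes measured. A log2 ratio of 0.32 either way was taken as the threshold of size, which is not a test. No member was higher in fl/fl past it, against 4.81% of all measured genes, and 3 of 84 (3.57%) were lower past it, against 15.6%. Both shares of members lie below those of all measured genes. The sign of the sum depends on the scaling: 57 members were below 0 and 27 above, and 43 and 41 when scaled as follows. Ribosomal protein genes held 26.2% of the T cell UMIs in +/+ and 29.8% in fl/fl, and with the CPM taken over UMIs that are neither mitochondrial nor ribosomal protein the ratio was 0.016.

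The 3 members past the threshold were Ndufa5, Uqcrc1 and Atp5k. Gene positions are those of GRCm38. Ndufa5, an accessory subunit in the matrix arm of complex I (chromosome 6, 24518666 to 24528013), was at 78.0 and 59.7 CPM, a log2 ratio of -0.39 (-0.46 to -0.31). Uqcrc1, a core protein of complex III (chromosome 9, 108936633 to 108949623), was at 63.0 and 49.1 CPM, a ratio of -0.36 (-0.44 to -0.28). For Atp5k, the e subunit of complex V (chromosome 5, 108433244 to 108434448), the levels were 116 and 92.4 CPM, a ratio of -0.33 (-0.39 to -0.27). The 3 genes belong to 3 different complexes. Just short of the threshold lay the accessory complex I subunits Ndufb7 and Ndufa1, both at -0.31. With the scaling that leaves out mitochondrial and ribosomal protein UMIs, no member was lower past the threshold and 2 were higher.

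Complex I takes electrons from NADH. Its 7 core subunits, which carry the flavin and the iron-sulfur clusters, summed to 433 and 420 CPM. Ndufs7 was the highest at 86.8 and 80.9 CPM, followed by Ndufv2 at 85.3 and 79.1 CPM. Ndufs1, which carries several of the clusters, had the lowest log2 ratio of the core subunits, -0.12, at 33.2 and 30.5 CPM. The 29 accessory subunits summed to 3649 and 3478 CPM, with Ndufa13 (264 and 240 CPM), Ndufb11 (204 and 207 CPM) and Ndufa2 (198 and 173 CPM) at the top. Their ratios ran from Ndufa5 at -0.39 to Ndufa10 at 0.28 (60.9 against 73.9 CPM). Ndufb5, a membrane-arm subunit, was also among the higher ones at 0.20. The assembly factors, which help build the complex and leave it, were the lowest group at 195 and 192 CPM over 8 genes. Among them Ndufaf4 had the highest ratio of any measured member, 0.29 (0.18 to 0.39), from 32.6 CPM in +/+ to 39.8 CPM in fl/fl.

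Complex II, which oxidises succinate and so links the tricarboxylic acid (TCA) cycle to the chain, summed to 250 and 248 CPM. The flavoprotein gene Sdha was at 84.1 and 85.5 CPM and the iron-sulfur gene Sdhb at 79.5 and 79.3 CPM. Its membrane anchors Sdhd (49.8 and 48.7 CPM) and Sdhc (37.1 and 34.4 CPM) were lower than both. For 3 of the 4 genes the interval of the ratio included 0, and Sdhc was at -0.11 (-0.21 to -0.01).

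Complex III hands electrons to cytochrome c. Below Uqcrh, Uqcrb was at 184 and 170 CPM and Uqcrq at 173 and 155 CPM. The Rieske iron-sulfur protein gene Uqcrfs1 had the highest ratio of the complex, 0.15, and Uqcrc1 the lowest. The 2 core proteins went apart: Uqcrc2 was at 91.7 and 97.6 CPM, a ratio of 0.09 (0.03 to 0.15), while Uqcrc1 was lower in fl/fl as described above.

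Complex IV reduces oxygen. Cox4i1 (526 and 546 CPM), Cox8a (498 and 456 CPM) and Ndufa4 (456 and 471 CPM) were its highest members. Cox5a, the partner of Cox4i1 in the enzyme's nuclear-encoded shell, had the highest ratio of the complex, 0.21 (0.17 to 0.24), from 241 CPM to 278 CPM. Cox6b1 had the lowest measured ratio, -0.24 (-0.28 to -0.20), from 303 CPM to 257 CPM. The 12 measured members of this complex thus spread over both signs, with 4 above 0 and 8 below.

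Complex V makes ATP. Atp5e, the epsilon subunit, was at 542 and 486 CPM, Atp5g2 at 408 and 440 CPM and Atp5h, the d subunit, at 425 and 423 CPM. The catalytic head subunits Atp5a1 (289 and 280 CPM) and Atp5b (274 and 296 CPM) were at similar levels to each other. Atp5c1, the rotating gamma subunit, had the highest ratio, 0.22 (0.19 to 0.26), and the small membrane subunits Atp5k and Atp5md (-0.29) the lowest.

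**Figure D2:**
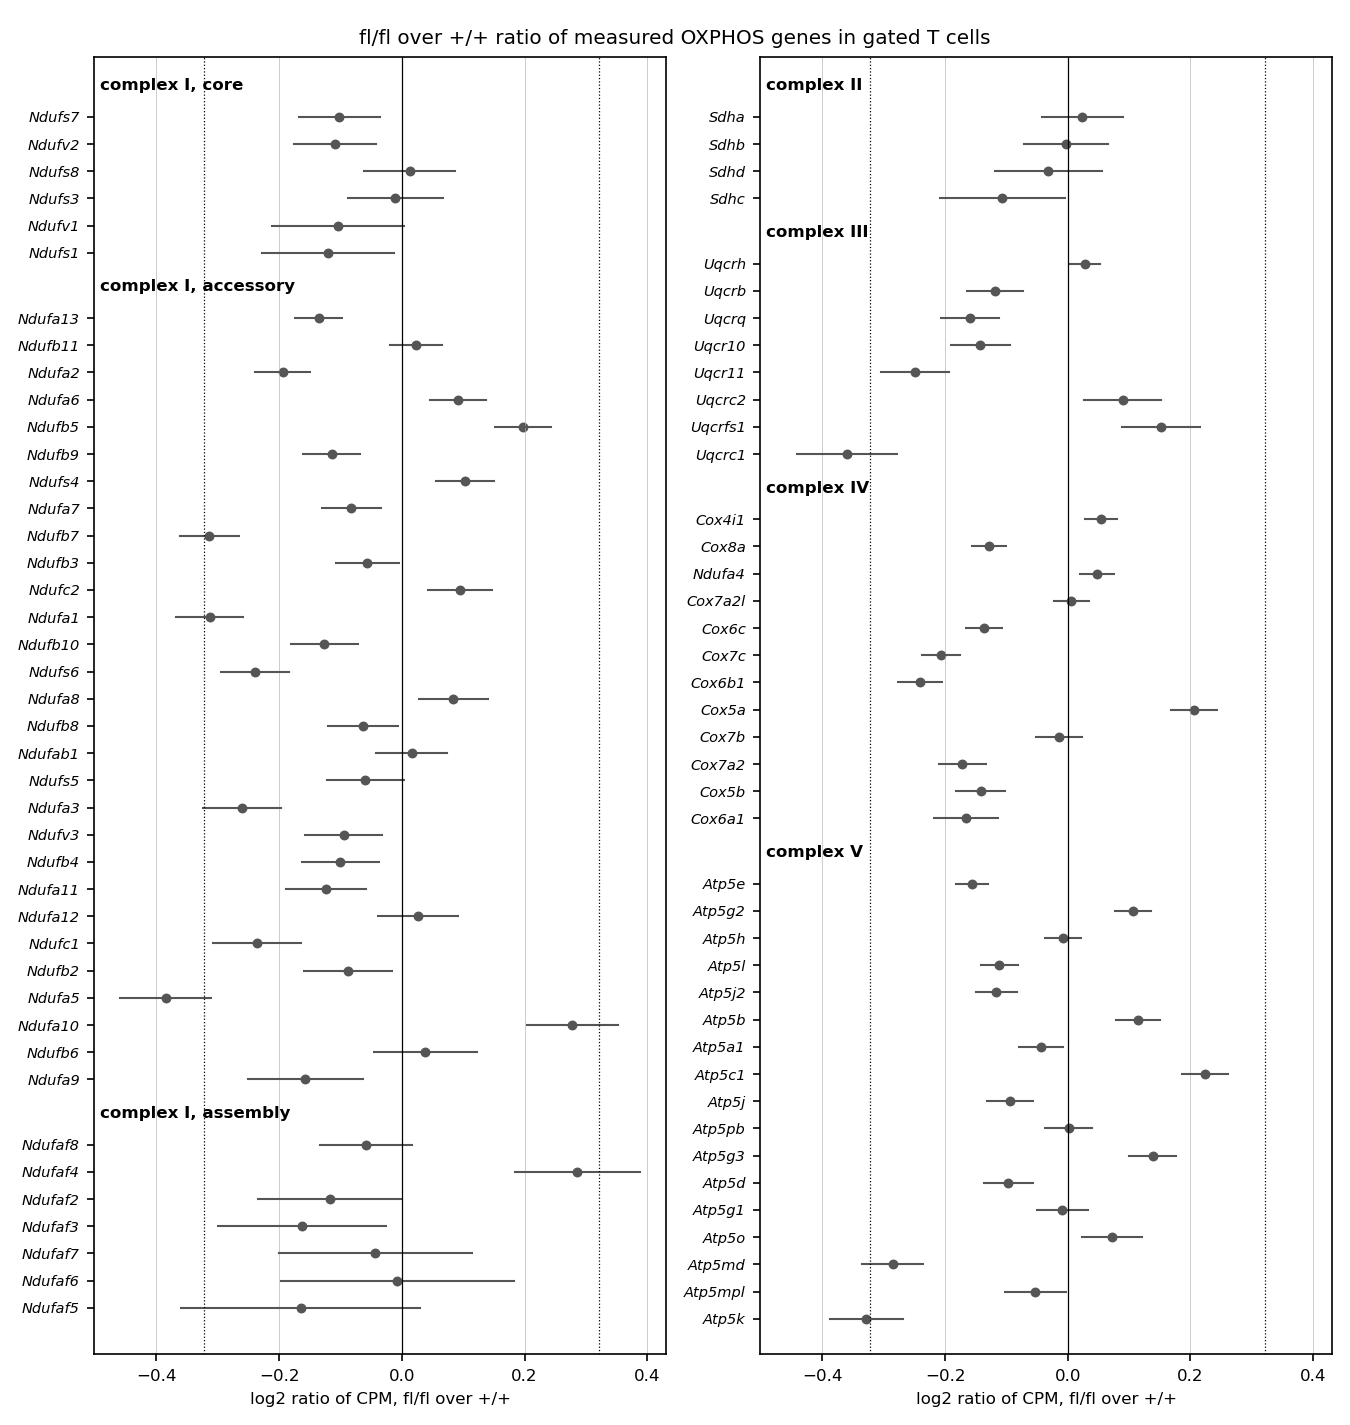
Log2 ratio of CPM, fl/fl over +/+, for 83 of the 84 measured genes in gated T cells, with 95% intervals for counting error and dotted lines at 0.32 either way. Ndufa5, Uqcrc1 and Atp5k lie beyond the lower line and no gene lies beyond the upper one.

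Subunit c of complex V, the ring protein, is made from 3 genes whose mature proteins are the same and whose import sequences differ. In T cells Atp5g2 gave 47.9% of their summed UMIs in +/+ and 48.5% in fl/fl, Atp5g3 27.3% and 28.3%, and Atp5g1 24.8% and 23.2%. Atp5g2 was first in each of the 12 gates with at least 50 cells per library except the fl/fl neutrophil gate, where Atp5g3 gave 44.8% of 174 UMIs (interval 37.3 to 52.5) and Atp5g2 39.7%. In the plasma gate, which held only 34 +/+ cells and is not compared further, Atp5g1 gave 41.6% and 37.0%, beside 31.5% and 36.3% for Atp5g2, so the order in fl/fl lies within the counting error.

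Complex IV also has isoform genes that are known from muscle, lung, testis or hypoxic cells. In T cells 7 of them and Ndufa4l2 were at or near 0. Cox8b had no UMI in any cell of either library, which allows up to 0.0561 and 0.0470 CPM (3 UMIs per library). Cox7b2 had 2 UMIs in +/+ and none in fl/fl, Cox8c 1 UMI in fl/fl only, and Ndufa4l2 3 UMIs in fl/fl only. Cox6a2, the heart and muscle form of subunit VIa, was the exception outside the T cells: in the monocyte/macrophage/DC gate it reached 52.1 CPM (116 UMIs) and 45.8 CPM (61 UMIs). Over all barcodes its 277 and 242 UMIs came from 43 and 41 cells. Cox6b2 stood at 12.1 and 11.3 CPM in the same gate. In T cells it had 52 UMIs in +/+ and 137 in fl/fl, below the level of a measured gene in both.

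The second comparison was between cell gates within each library. None of the members entered the gates, which rest on marker genes. In resting Treg cells, the largest gate (2209 and 3024 cells), the members summed to 13772 and 13105 CPM. Across the 12 gates the sum was lowest in neutrophils, at 10581 and 9763 CPM, and highest in cycling T cells, at 23013 and 20582 CPM. The other T cell gates stood between 13645 and 16111 CPM in either library.

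Cycling T cells (159 and 256 cells) held a larger share of these transcripts than the other 11 gates. The log2 ratio of their summed level to resting Treg cells was 0.74 (0.73 to 0.75) in +/+ and 0.65 (0.64 to 0.66) in fl/fl, or 1.67-fold and 1.57-fold. Of 83 members measured, 73 were higher past the threshold in both libraries, against 29.1% of all measured genes, and 2 were lower, against 22.7%. Per cell, the median share of UMIs was 2.25% and 1.92% in cycling cells, against 1.34% and 1.29% in resting Treg cells. The median over all genes in the same comparison was -0.03 in +/+ and 0.09 in fl/fl. Over cells of all depths, the 7 groups of members were each higher in both libraries, with complex IV at the top (0.81 and 0.77) and complex III (0.55 and 0.44) and the assembly factors (0.57 and 0.43) at the bottom.

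Cox5a stood highest against resting Treg cells (chromosome 9, 57521274 to 57532426), at 535 CPM in cycling and 206 CPM in resting cells of +/+ and at 553 and 221 CPM in fl/fl. These levels are log2 ratios of 1.38 and 1.32. Uqcr10, a small subunit of complex III (chromosome 11, 4701973 to 4704342), was at 337 and 133 CPM in +/+ and 276 and 126 CPM in fl/fl, ratios of 1.35 and 1.13. Sdhd, a membrane anchor of complex II (chromosome 9, 50596357 to 50603812), had ratios of 1.28 and 1.19. Within complex II the anchor and the flavoprotein differed: Sdha was at 0.02 and 0.19.

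The 2 members that were lower in cycling cells were Cox7a2l and Ndufa6. Cox7a2l, which encodes a factor of respiratory supercomplex assembly (chromosome 17, 83501918 to 83517330), was at 281 CPM in cycling and 502 CPM in resting cells of +/+ and at 287 and 453 CPM in fl/fl, log2 ratios of -0.84 and -0.66. Ndufa6, an accessory complex I subunit of the LYR motif family (chromosome 15, 82350140 to 82354322), was at 130 and 185 CPM in +/+ and 145 and 188 CPM in fl/fl, ratios of -0.51 and -0.37. Uqcrh, the highest member in T cells, was near its resting level in both libraries, at -0.06 and -0.11. The median member of complex III was at 0.70 and 0.77, above the ratio of the complex's sum, to which Uqcrh contributes most.

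**Figure D3:**
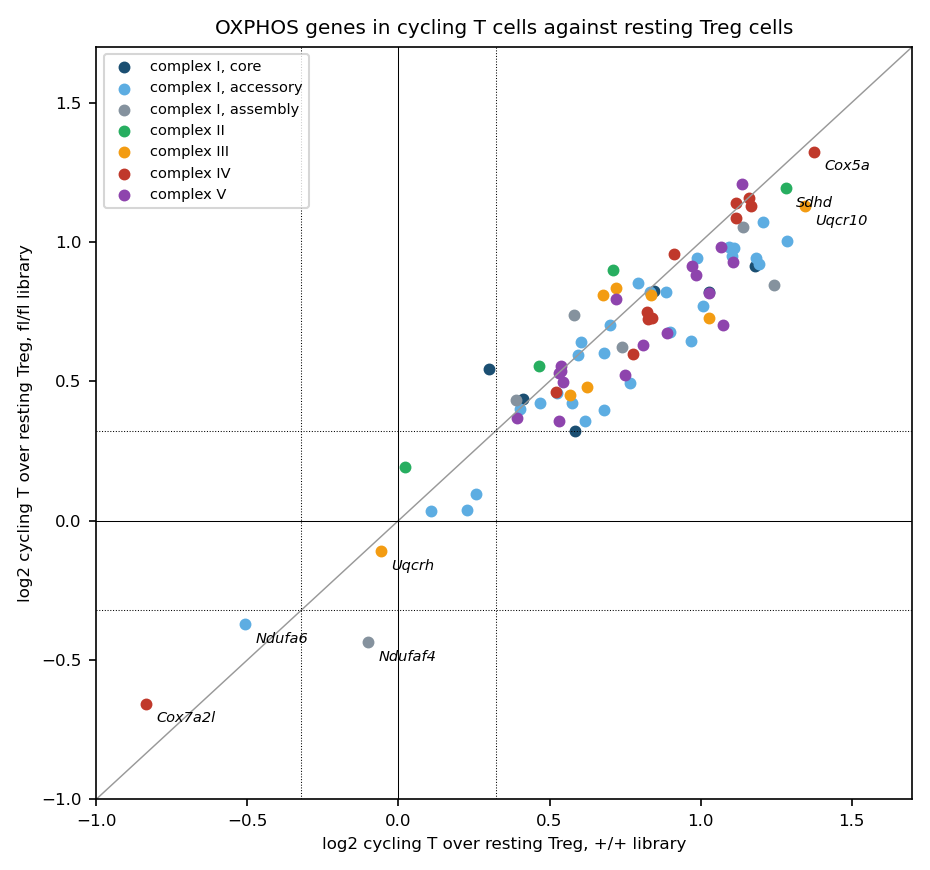
Log2 ratio of CPM in cycling T cells over resting Treg cells for single measured genes, with the +/+ library on the horizontal and the fl/fl library on the vertical axis, colours for the complexes and dotted lines at 0.32 either way. Most genes lie in the upper right, and Cox7a2l and Ndufa6 lie beyond the lower lines in both libraries.

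Other mitochondrial gene lists were read in the same 2 gates. Mitochondrial ribosomal protein genes, whose products translate the mitochondrial messages, were higher past the threshold in 65 of 76 measured in both libraries, with summed ratios of 0.79 and 0.65. Among genes of the TCA cycle and pyruvate dehydrogenase, 11 of 20 were higher and 2 lower, with sums of 0.49 and 0.44. The 13 protein-coding genes of the mitochondrial genome were at 0.08 and 0.11, with 1 of 13 past the threshold. That value depended on depth: among cells of 9000 to 13000 UMIs it was 0.18 in +/+ and -0.17 in fl/fl, opposite in sign. Cytosolic ribosomal protein genes were lower, at -0.19 and -0.41, with 25 of 83 past the threshold. Of all measured genes, 29.1% were higher and 22.7% lower past it in both libraries.

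Cycling cells were deeper than resting Treg cells, with median UMIs of 18094 and 16020 against 5812 and 6837.5. Among cells of 9000 to 13000 UMIs only (23 and 62 cycling, 188 and 469 resting cells), the ratio was 0.60 (0.55 to 0.64) in +/+ and 0.53 (0.51 to 0.56) in fl/fl. In these cells complex IV was at 0.75 and 0.71 and complex III at 0.22 and 0.26. The assembly factors were at 0.35 (-0.10 to 0.76) and 0.15 (-0.13 to 0.42), intervals that include 0 in both libraries. Resting Treg cells of 13000 UMIs or more had 13760 and 13278 CPM, near those of 4000 to 6000 UMIs at 13843 and 13145 CPM. The cycling gate was split by Foxp3 or Ikzf2 counts after its values were seen. Cycling cells that met the Treg rule (120 and 209) had ratios of 0.73 and 0.63, and those that did not (39 and 47) had 0.77 and 0.79, so the higher level was found in both kinds.

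Effector Treg cells (1234 and 557 cells) differed from resting Treg cells by less. Their members summed to 15672 and 16111 CPM, log2 ratios of 0.19 (0.18 to 0.20) and 0.30 (0.29 to 0.31). Of 84 measured members, 21 were higher past the threshold in both libraries, against 21.7% of all measured genes, and 1 was lower, against 5.73%. The share of members past the threshold is thus near that of genes in general, and the medians over all genes were themselves at 0.15 and 0.20. Cytosolic ribosomal protein genes were at -0.43 and -0.45 in the same comparison, and on the scaling without mitochondrial and ribosomal protein UMIs the member sums were at 0.06 and 0.12.

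By group, the assembly factors of complex I had the highest effector ratios, 0.51 (0.42 to 0.60) in +/+ and 0.40 (0.29 to 0.50) in fl/fl, with 4 of 7 past the threshold. Among cells of 9000 to 13000 UMIs (85 and 73 effector cells) they were at 0.58 and 0.43, and in fl/fl complex IV (0.49) and the accessory subunits of complex I (0.45) were then higher. Ndufaf2 was at 35.7 CPM in effector and 23.6 CPM in resting cells of +/+ and at 34.6 and 21.6 CPM in fl/fl, ratios of 0.60 and 0.68. Ndufaf3 had ratios of 0.54 and 0.77. Cox8a, a small subunit of complex IV, was at 559 against 406 CPM in +/+ and 593 against 356 CPM in fl/fl, ratios of 0.46 and 0.74. Cox7a2l was the member past the threshold, at 316 against 502 CPM in +/+ and 362 against 453 CPM in fl/fl, ratios of -0.67 and -0.32. Ndufa6 was next, at -0.33 and -0.21. These are the same 2 genes that were lowest in cycling cells. All gates are compared with the same resting Treg cells of their library, so these comparisons are not independent.

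The remaining T cell gates lay close to resting Treg cells. Conventional CD4 T cells had summed ratios of -0.01 (-0.02 to 0.01) in +/+ and 0.12 (0.11 to 0.14) in fl/fl, with 1 of 83 members higher past the threshold in both libraries (5.2% of all genes) and none lower (5.86%). CD8 T cells had ratios of 0.06 and 0.11, with 2 of 82 higher (9.36% of all genes) and none lower (8.62%). Of the higher members, Cox8a stood first at 0.49 and 0.55. In interferon-responding T cells, at 0.05 and 0.06, none of 82 members passed the threshold in both libraries (7.33% of all genes were higher and 4.47% lower). These sums in +/+ turned below 0 under 1 setting each, to -0.0055 in CD8 T cells of 9000 to 13000 UMIs and to -0.019 in interferon-responding cells thinned to 2500 UMIs. Intermediate Treg cells are those that met neither the resting nor the effector rule. In them resting markers summed to 1169 and 1525 CPM and effector markers to 871 and 1113 CPM. Their member sums had ratios of 0.12 and 0.16, between the resting and effector gates. With mitochondrial and ribosomal protein UMIs left out of the total these were 0.053 and 0.059.

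**Figure D4:**
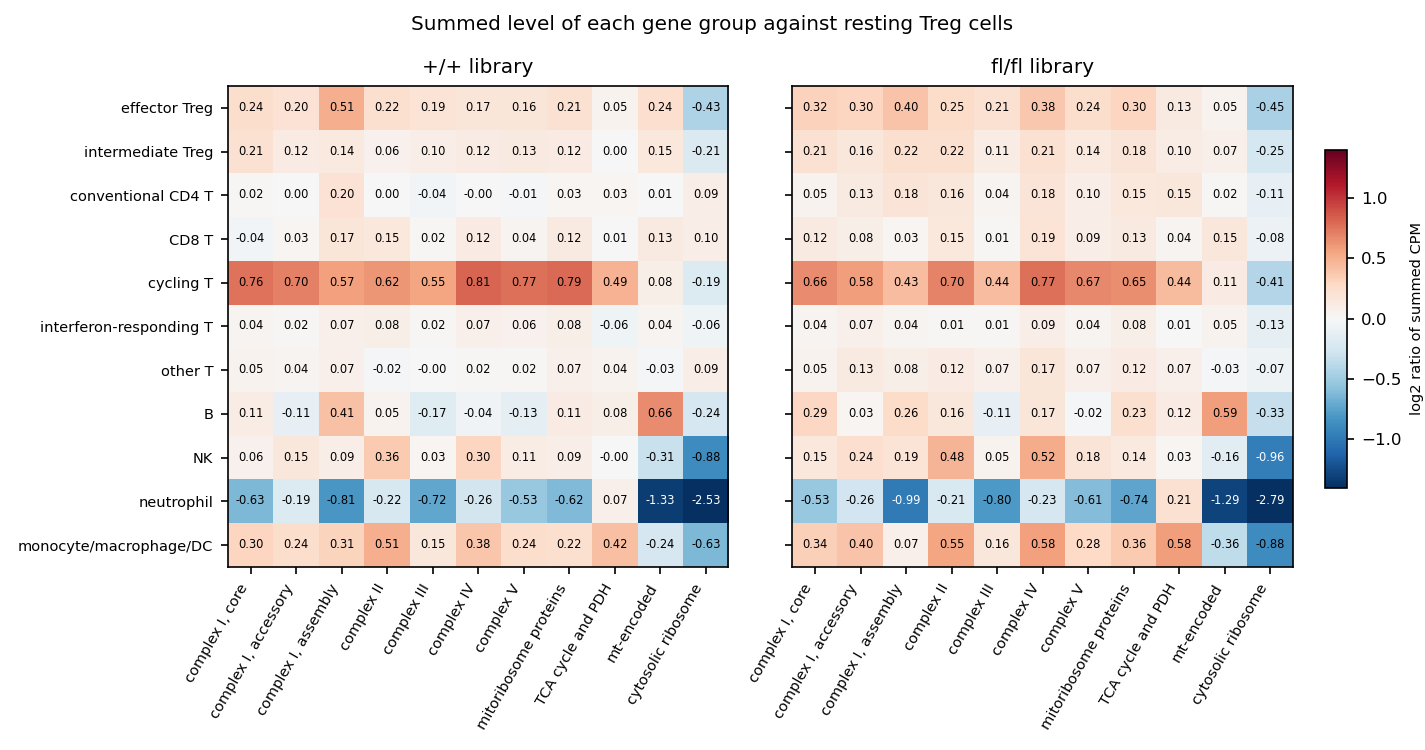
Log2 ratio of the summed CPM of each gene group in each gate over resting Treg cells, +/+ on the left and fl/fl on the right, with the value in each cell; the colour scale ends at 1.4 either way. The cycling row is high for all 7 groups of nuclear-encoded members and near 0 for mt-encoded genes, and in the B cell row the mt-encoded column stands out at 0.66 and 0.59.

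Outside the T lineage the member sum was lowest in neutrophils, at log2 ratios to resting Treg cells of -0.38 and -0.42. Under the 3 alternatives of scaling and depth it ran from -0.82 to -0.55 in +/+ and from -0.96 to -0.47 in fl/fl. In monocytes, macrophages and dendritic cells the sum was at 0.28 and 0.39. The alternatives there gave 0.06 to 0.18 in +/+ and 0.08 to 0.22 in fl/fl. The NK sums were 0.17 and 0.28. NK cells (159 and 183 cells) had 17 of 83 members higher, against 30.9% of all genes, and 2 lower, against 16.5%. Cox8a led in both libraries at 908 and 909 CPM, log2 ratios of 1.16 and 1.35. Cox7a2l was again the lowest, at -0.93 and -0.49. In B cells (503 and 1247) the sum was at -0.09 and 0.05, with 7 of 84 higher, against 25.7% of all genes, and 3 lower, against 18.7%. The complex I core subunit Ndufs8 had the highest B cell ratios, 0.79 and 0.76, and Ndufv3 the lowest by their mean, -0.73 and -0.34. In monocytes, macrophages and dendritic cells (203 and 150) 34 of 85 were higher, against 36% of all genes, and 1 was lower, against 22%. The lower one was Uqcrh (-0.46 and -0.55). The highest were Cox6a2 (6.34 and 7.66) and Cox6b2 (3.83 and 2.29), which were not measured in T cells. Both are among the 34 of 85. They reached 10 CPM only through this gate, so that filter fixed their direction. Among members measured in T cells, Sdhd was at 1.15 and 1.35, Ndufaf7 at 1.34 and 1.13 and Cox5a at 1.08 and 1.20. Neutrophils (126 and 65 cells) had 43 of 82 lower, against 48.2% of all genes, and 5 higher, against 24.8%. Among these members Ndufaf4 (-2.04 and -3.07) and Ndufaf2 (-1.92 and -2.11) had the lowest mean ratios, each under 10 CPM in neutrophils. Cox7a2l followed at -1.93 and -1.74. Cox5a and Ndufb7 were nevertheless higher in neutrophils than in resting Treg cells, with Ndufb7 at 270 against 157 CPM in +/+ and 253 against 117 CPM in fl/fl. In these 4 gates the share of members past the threshold was near or below that of all genes. The shares were not matched for level. All genes go down to 10 CPM, and the fl/fl neutrophil and NK gates held only 597753 and 872438 UMIs. With mitochondrial and ribosomal protein UMIs left out of the total, the NK sums turned to -0.08 and -0.03 and the fl/fl B cell sum to -0.06. The fl/fl B cell sum was below 0 in each of the 3 alternatives, from -0.092 to -0.035.

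The transcripts of the mitochondrial genome did not follow the nuclear-encoded members from gate to gate. The ratio of summed mt-encoded to summed nuclear-encoded CPM was 2.09 and 1.94 in resting Treg cells. B cells had the highest ratio, 3.50 in +/+ and 2.80 in fl/fl, cycling T cells 1.33 in both, and neutrophils the lowest, 1.08 and 1.06. Past the threshold in both libraries, 12 of 13 mt-encoded genes were higher in B than in resting Treg cells, against 25.7% of all genes. The nuclear-encoded sum of B cells was near its resting level.

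**Figure D5:**
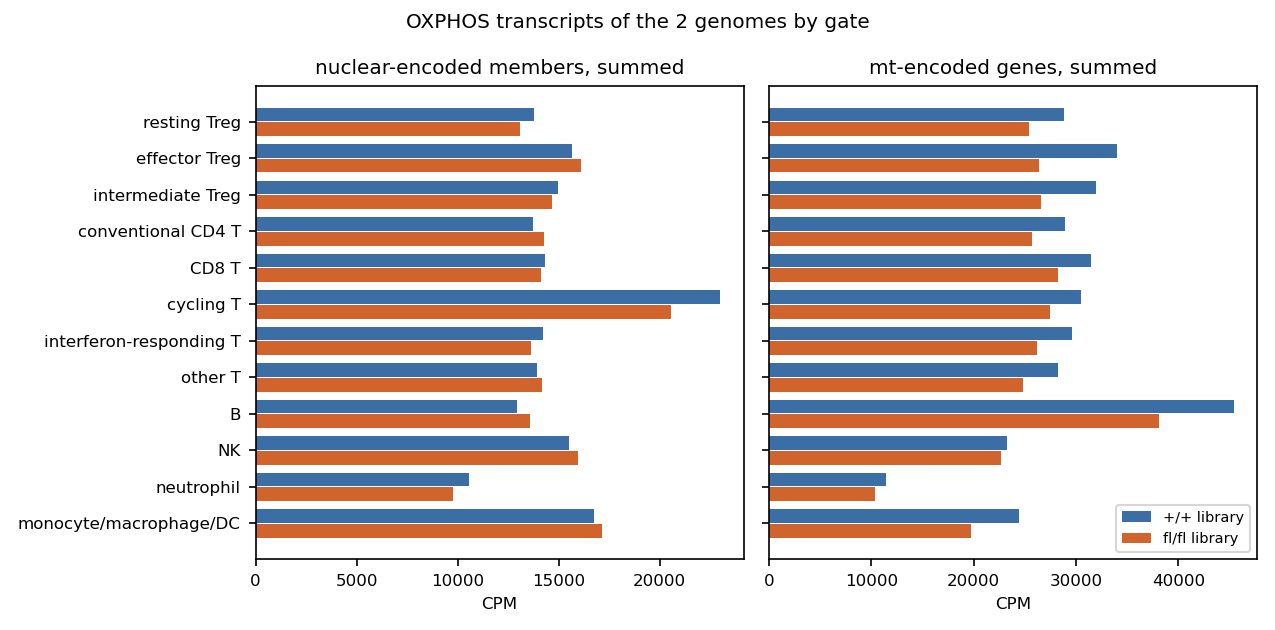
Summed CPM of the nuclear-encoded members (left) and of the 13 mt-encoded genes (right) in each gate, with 1 bar per library. Cycling T cells have the longest bars on the left and B cells on the right, and the +/+ bar is the longer one for mt-encoded genes in each of the 12 gates.

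Between the libraries the 2 genomes also differed. The mt-encoded genes summed to 30240 and 25919 CPM in T cells, a log2 ratio of -0.22 (-0.23 to -0.22), with 12 of 13 below 0. The median over all genes was -0.096. Leaving mitochondrial and ribosomal protein UMIs out of the total gave -0.16 for the mt-encoded sum, and scaling each library so that the median gene ratio is 0 gave -0.13. Mt-Nd3, a complex I subunit, had the lowest ratio, -0.54 (588 and 403 CPM), and mt-Atp8 the highest, 0.08 (-0.04 to 0.19). As CPM over all UMIs, the mt-encoded sum was lower in fl/fl in all 12 gates, from -0.37 in effector Treg cells to -0.04 in NK cells. In NK cells it was -0.010 (-0.040 to 0.020) without the mitochondrial and ribosomal protein UMIs and turned to 0.047 when scaled to the median gene. The other 11 gates were below 0 under both scalings, which were added for single gates after the values were seen.

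Within the gates, the nuclear-encoded sum differed little between libraries and in both directions. Its fl/fl over +/+ log2 ratio was -0.072 in resting Treg cells, 0.040 in effector Treg cells, 0.058 in conventional CD4 T cells and 0.070 in B cells. In resting Treg cells it turned to 0.020 without mitochondrial and ribosomal protein UMIs and to 0.051 when scaled to the median gene. Intermediate Treg cells likewise went from -0.028 to 0.026 and 0.042. The largest difference was in cycling T cells, at -0.16 (-0.17 to -0.15), where 74 of 85 measured members were below 0. The median over all genes measured in that gate was -0.014. There 14 of 85 were lower past the threshold, against 14.8% of all genes, and none was higher, against 12.5%. Ndufb7 was the lowest, at 337 and 227 CPM, a ratio of -0.57. Complex II was the one complex of the 5 without a lower sum in fl/fl cycling cells, at 0.03 (-0.08 to 0.13), with Sdha at 79.7 and 92.7 CPM. Mitochondrial ribosomal protein genes had a ratio of -0.18 in the same cells. Treg markers summed to 1659 and 2407 CPM in these cells and NK markers to 15.8 and 74.4 CPM, and their part in this difference was not tested. Within cycling cells that met the Treg rule the ratio was -0.17 (-0.19 to -0.15), and in the others -0.05 (-0.09 to -0.02).

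In the 3 Treg gates together, the sum stood at 14487 and 13656 CPM, a ratio of -0.085 (-0.092 to -0.079). The median over all genes in these gates was -0.14. Of 83 members measured there, 2 were higher in fl/fl past the threshold, against 5.8% of all genes, and 7 were lower, against 24.3%. The higher ones were Ndufaf4 (0.41) and Ndufa10 (0.33), and the lowest were Ndufa5 (-0.49), Uqcrc1 (-0.45) and Atp5k (-0.45). These are the 3 lower genes of all T cells. The Treg gates hold 3983 of the 6411 gated T cells in +/+ and 3916 of the 6464 in fl/fl, so the 2 readings are not independent. Resting cells made up a larger share of the fl/fl than of the +/+ Treg gates (3024 of 3916 against 2209 of 3983 cells).

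Some members had the same sign in all 12 gates, which share the 2 libraries. Atp5c1 and Cox5a were higher in fl/fl in each gate, 2 of 84 members, against 0.925% of the 8002 measured genes. Ndufa1, Ndufa5, Cox6b1, Ndufs6, Ndufa2 and Atp5md were lower in each, 6 of 84, against 2.24%. These shares were not matched for level. The median member was at 123 and 111 CPM, whereas all measured genes go down to 10 CPM, where small gates hold few counts. Cox5a ranged from 0.05 in cycling T cells to 0.54 in effector Treg cells, with an interval above 0 in 11 gates. For Atp5c1 the range was 0.02 to 0.40, with 7 such gates. Ndufa1 ranged from -0.50 to -0.09 and Ndufa5 from -0.47 to -0.0027. Scaled to the median gene, Ndufa5 was lower in 8 gates, Ndufs6 in 9 and Cox6b1 in 10. Without mitochondrial and ribosomal protein UMIs, Ndufa5 and Ndufs6 were each lower in 11. The other 5 genes kept their sign in all 12 gates under both scalings.

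Genes around the pathway were read in T cells from lists of electron carriers, assembly factors, regulators, carriers and enzymes. Among 37 measured electron carriers and assembly factors outside the symbol rule, Cox20 (-0.32) and Pet100 (-0.43), both for the building of complex IV, were lower past the threshold and none was higher. Of 15 measured regulators, Myc was higher, from 56.8 CPM in +/+ to 81.9 CPM in fl/fl (0.53), and Slirp, a stabiliser of mitochondrial mRNA, was lower (-0.40). Nrf1 was at 110 and 91.6 CPM (-0.27) and Tfam, which packages mitochondrial DNA, at 52.0 and 49.5 CPM. Ppargc1a, the PGC-1alpha gene, was close to 0 at 0.34 and 0.49 CPM. Among 20 genes of the TCA cycle and pyruvate dehydrogenase, Pdha1 was higher (0.35). Of 75 measured mitochondrial ribosomal protein genes none was higher and 2 were lower, Mrps6 (-0.51) and Mrpl33 (-0.37). Beside these list counts, 4.81% of all genes measured in T cells were higher past the threshold and 15.6% were lower.

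Carriers and other membrane proteins of mitochondria had the highest summed ratio of the mitochondrial lists. They summed to 1917 and 2158 CPM, a ratio of 0.17 (0.16 to 0.18), with 10 of 13 genes above 0. The median over all genes measured in T cells was -0.096. Slc25a4, an ADP/ATP carrier that exchanges the product of complex V across the inner membrane, was at 87.5 and 138 CPM, a ratio of 0.66 (0.60 to 0.72), and was the 1 gene of the list past the threshold. Its paralog Slc25a5 was at 273 and 325 CPM (0.25). The phosphate carrier Slc25a3 was at 324 and 300 CPM (-0.11). Past the threshold, 4.81% of all genes measured in T cells were higher. The lists were chosen with earlier results of these data known, and these counts describe the 2 libraries.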

How the data were processed

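The labels describe 2 single-cell libraries, 1 per genotype, from sorted splenic Treg cells. The deposited matrices hold raw UMI counts per gene and barcode; per the submitters' processing notes, fastp, Cell Ranger 7.1.0 and Seurat 4.1.1 were used with mm10/GRCm38. Which cell filters preceded deposit is not given in the sources used here.

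Barcodes with under 500 genes or over 10% mitochondrial UMIs were dropped, and cells were gated on marker UMIs: T cells needed 3 T cell marker UMIs, cycling cells 5, B cells 5, NK cells 3, neutrophils 20, monocytes, macrophages or dendritic cells 10, plasma cells 20 and interferon-responding cells 8 of their own markers. Treg cells needed 1 Foxp3 or 2 Ikzf2 UMIs; resting ones had at least 3 resting marker UMIs and at least 2 times the effector ones, and effector ones at least 3 effector marker UMIs and more than resting ones. CD8 T cells needed 2 CD8 marker UMIs. Conventional CD4 T cells had a Cd4 UMI and no Foxp3, Ikzf2 or CD8 marker UMI, and other T cells met none of these rules. The cut-offs were set after the marker distributions were seen. Barcodes with markers of 2 lineages were left out, and no doublet caller was run. Counts were summed per gate and scaled to CPM; genes of at least 10 CPM in either library count as measured. With 1 library per genotype no test was run. Ratios, intervals and the threshold of size were tried on simulated Poisson counts with known changes. Those counts follow the model that the intervals assume and hold no variation between cells, mice or libraries. The median UMI counts of T cells, 5590 and 6292, set the precision per cell. Computation used Python 3.11.15, numpy 2.4.6, scipy 1.17.1, pandas 2.3.3 and matplotlib 3.10.9.

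Named genes were those of highest level and of highest and lowest ratio per complex, and all past the threshold. Named too were the restricted isoforms, the subunit c genes and list members past the threshold. Of the 3 highest and 3 lowest members per gate, only some are named. Members outside this rule are named for context and were chosen after their values were seen. One measured member is not reported here by name and is left out of the plots of single genes; sums and counts include it. Members and lists were chosen with earlier results of these data known. Alternatives varied scaling, cell choice, depth, filters and the threshold.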

Additional observations from a re-analysis of the deposited data

Results flagged for a closer look

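The summed level of the members was higher in fl/fl in some gates and lower in others, with counting intervals that exclude 0. The log2 ratio of fl/fl over +/+ was above 0 in effector Treg cells (0.040), conventional CD4 T cells (0.058), other T cells (0.023), B cells (0.070), NK cells (0.043) and monocytes, macrophages and dendritic cells (0.033). It was below 0 in resting Treg cells (-0.072), intermediate Treg cells (-0.028), cycling T cells (-0.16), interferon-responding T cells (-0.060) and neutrophils (-0.12). The difference between gates was not tested, since there is 1 library per genotype. With mitochondrial and ribosomal protein UMIs left out of the total, an alternative for single gates chosen after seeing the data, 8 of the 12 gates were above 0. Scaled so that the median gene ratio is 0, 10 of the 12 were above 0, and cycling T cells (-0.15) and neutrophils (-0.078) were below. Resting and intermediate Treg cells were above 0 under both scalings. With the first of these scalings, cycling T cells (-0.17) and neutrophils (-0.12) had intervals below 0. Cycling markers summed to 153 CPM in +/+ B cells and 389 CPM in fl/fl B cells, and to 239 and 790 CPM in NK cells. Their part in the B and NK cell sums was not tested.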

How the results depend on the processing

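Between the libraries, the summed log2 ratio of all members in T cells was -0.050. It was 0.016 with mitochondrial and ribosomal protein UMIs left out of the total, 0.046 under median scaling (by the median ratio over genes), -0.033 over all deposited barcodes, -0.085 in the Treg gates only, -0.035 with T cell gates weighted alike, -0.036 with cells thinned to 2500 UMIs (61 and 41 shallower cells left out) and -0.034 with every cell weighted alike. The members higher past the threshold numbered 0. There were 2 without mitochondrial and ribosomal protein UMIs, 2 under median scaling, 2 in the Treg gates, 1 among T cells with a Foxp3 UMI, 1 when thinned and 7 at a fold of 1.1. The members lower past it numbered 3. There were 0 without mitochondrial and ribosomal protein UMIs, 0 under median scaling, 0 with gates weighted alike, 1 over all barcodes, 1 when thinned, 7 in the Treg gates, 22 at a fold of 1.1 and 0 at a fold of 1.5. Below and above 0 stood 57 and 27 members, against 43 and 41 without mitochondrial and ribosomal protein UMIs and 39 and 45 under median scaling. In 57 of 84 members the sign held in all 11 alternatives. Leaving those UMIs out moved the median of all genes from -0.096 to -0.031.

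Against resting Treg cells, the values when thinned, without mitochondrial and ribosomal protein UMIs, and in cells of 9000 to 13000 UMIs (chosen after seeing the data) were as follows. Effector Treg cells gave 0.098, 0.055 and 0.27 in +/+ and 0.21, 0.12 and 0.42 in fl/fl. Conventional CD4 T cells gave 0.034 and -0.062 in +/+ under the last 2, and 0.14, 0.072 and 0.16 in fl/fl. Cycling T cells gave 0.65, 0.68 and 0.60 in +/+ and 0.60, 0.49 and 0.53 in fl/fl. The causes were not tested. No paired analysis was possible because each genotype has 1 library, and no replicate could be left out. Counting intervals do not cover differences between mice, and genotype and library cannot be told apart.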
